A study of Mus musculus with 8 samples.

Results

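The genes of the ventricular thin filament and of the ventricular myosin light chains were examined in RNA-sequencing of mouse hearts. The 9 genes were listed by name and matched by symbol, and all 9 were found among the 25929 genes of the expression table. They encode cardiac troponin T (Tnnt2), cardiac troponin I (Tnni3), the troponin C of cardiac and slow muscle (Tnnc1), slow skeletal troponin I (Tnni1), slow skeletal troponin T (Tnnt1), alpha-tropomyosin (Tpm1), cardiac alpha-actin (Actc1), the ventricular regulatory light chain (Myl2) and the ventricular essential light chain (Myl3). The rule goes by gene names and has no threshold on a measured value.

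The study compared wild-type mice (WT, strain C57BL/6) with transgenic littermates (Fat1, strain labelled Fat-1). The transgene carries fat-1 of Caenorhabditis elegans, an n-3 fatty acid desaturase that converts n-6 into n-3 polyunsaturated fatty acids, and the sources used here do not name its promoter. At 3 months of age the mice underwent transverse aortic constriction (TAC), which narrows the aorta and raises the pressure against which the left ventricle ejects, or a sham operation without the constriction, and pressure overload lasted 8 weeks. Each genotype thus had a sham and a TAC group (WT-Sham and WT-TAC, and likewise Fat1-Sham and Fat1-TAC), with 2 independent samples per group labelled ventricular tissue, whereas the methods describe RNA from whole hearts. Values are FPKM, a fragment count corrected for gene length and for library depth, so levels can be compared between genes within a library. Between libraries, the comparison also depends on how each library is scaled, and results under other scalings are given below.

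In striated muscle, the thin filament is a polymer of actin along which tropomyosin lies, and the troponin complex sits at regular intervals on tropomyosin. Troponin C binds calcium, troponin I holds the filament in its inhibited state when calcium is low, and troponin T anchors the complex to tropomyosin. The light chains wrap the neck of the myosin head on the thick filament, and the phosphorylation of the regulatory light chain tunes the force of the beat. The adult ventricle uses the cardiac troponins and the ventricular light chains, while slow skeletal troponin I is the form of the fetal heart and Myl7 and Myl4 encode the atrial light chains.

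The tissue label was compared with marker genes before the members were examined, because it bears on all that follows. The 16 cardiomyocyte reference genes, none of them a member, were at 0 in no library, and in WT-TAC1 their median stood at 0.565 of the geometric mean over the 8 libraries, against 1.02 to 1.18 in the other 7. The 6 atrial markers summed to 1059 to 3919 FPKM in both WT-Sham libraries, both WT-TAC libraries and Fat1-Sham1, and to 26.4 to 53.8 FPKM in Fat1-Sham2 and both Fat1-TAC libraries. The 8 airway epithelium markers summed to 1605 and 3792 FPKM in the WT-TAC libraries, to 50.4 FPKM in Fat1-Sham1 and to 2.09 to 4.85 FPKM in the other 5 libraries. Airway secretory genes such as Scgb1a1 are not expressed by heart muscle, while the keratins Krt8 and Krt18 of the list were at 0.519 to 2.52 FPKM outside WT-TAC. WT-TAC against WT-Sham called 6 of the 8 up, beside 0.935% of all genes called in either direction. The 8 thymocyte markers summed to 1776 FPKM in WT-TAC1 and to 0.951 to 3.22 FPKM elsewhere, and Rag1, which immature lymphocytes use to rearrange their receptors, was at 0 in 6 of the 8 libraries and at 252 FPKM in WT-TAC1. The 9 fast skeletal muscle markers found in the table summed to 196 FPKM in WT-TAC1 and to 4.86 to 12.2 FPKM elsewhere. Adipocyte markers summed to 857 and 1184 FPKM in WT-TAC and to 257 to 511 FPKM elsewhere. Libraries contained 14163994 to 21218331 fragments, and fragments from mitochondrially encoded genes made up 11.7% of WT-TAC1, 19.3% of WT-TAC2 and 22.8 to 27.6% in the other 6. Their part in the results below was not tested, except where a value without WT-TAC1 or scaled to the reference genes is given.

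**Figure D1:**
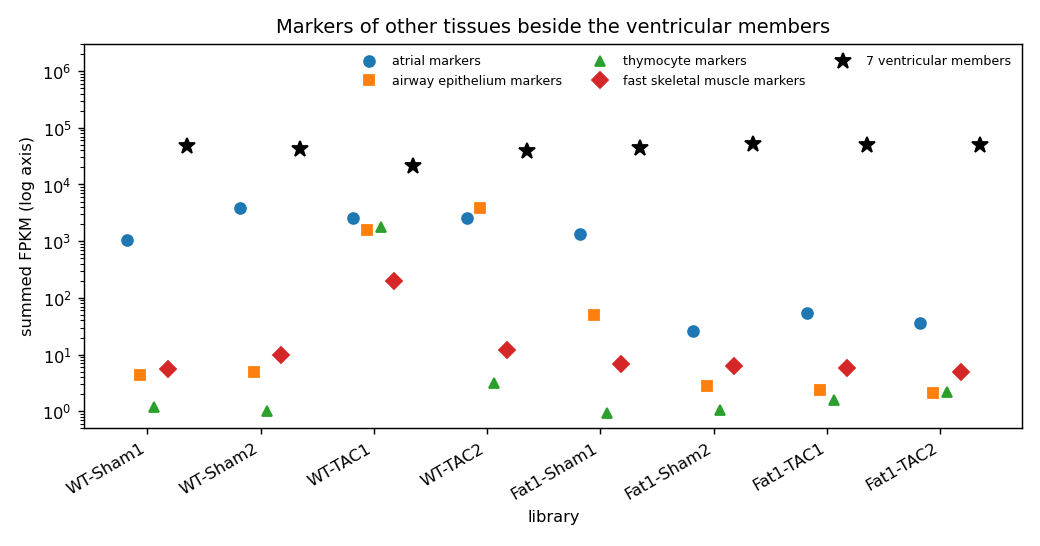
Summed FPKM on a log axis for 4 marker lists of other tissues and for the 7 ventricular members (Tnnt2, Tnni3, Tnnc1, Tpm1, Actc1, Myl2 and Myl3), with 1 position per library. WT-TAC1 holds the lowest star, 21548 FPKM, and the highest thymocyte and fast skeletal muscle sums, and both WT-TAC libraries hold the highest airway sums.

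On GRCm38 with the GENCODE M21 annotation, the members lie on 6 chromosomes and form 2 pairs of neighbours, each joining a troponin I gene with a troponin T gene. Tnni1 (chr1:135779434-135810989, + strand) ends 25364 bases before Tnnt2 (chr1:135836354-135852260, + strand), and Tnnt1 (chr7:4504570-4516382, - strand) lies 1922 bases from Tnni3 (chr7:4518305-4524229, - strand). Each pair thus sets a gene of the slow skeletal form beside a gene of the cardiac form. Tnnc1 lies at chr14:31208312-31211729 (+ strand), Actc1 at chr2:114047282-114053548 (- strand) and Tpm1 at chr9:67022590-67049406 (- strand). Myl2 lies at chr5:122100951-122113472 (+ strand) and Myl3 at chr9:110741861-110769798 (+ strand). Tnni3 overlaps Dnaaf3 on the same strand, and Tnnc1, Actc1, Myl2 and Myl3 overlap Nisch, A530058N18Rik, Ccdc63 and Pth1r on the opposite strand. Counting by strand is not stated for these files, so fragments from overlapped parts cannot be assigned with certainty.

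The promoters of 4 members, a subunit of each kind (troponin T, troponin C, actin and a light chain), are shown because they hold short motifs familiar from muscle promoters. The windows were taken from RefSeq (GRCm38.p6), run from 200 bases before the RefSeq start to the last base before any annotated start, and are written in the direction of the gene. Capitals mark the matches to 3 motifs, each searched on both strands. These were the MCAT motif (CATTCC, which reads GGAATG on the opposite strand), a GATA motif (AGATAA) and the CArG box. In Tnnt2 the GATA match lies on the opposite strand and reads TTATCT.
Tnnt2 (chr1:135836134-135836333, + strand): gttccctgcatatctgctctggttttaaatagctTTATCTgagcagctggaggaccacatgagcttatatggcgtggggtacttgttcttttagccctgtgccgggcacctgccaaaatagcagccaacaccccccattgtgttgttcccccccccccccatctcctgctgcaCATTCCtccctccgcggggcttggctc
Tnnc1 (chr14:31208112-31208311, + strand): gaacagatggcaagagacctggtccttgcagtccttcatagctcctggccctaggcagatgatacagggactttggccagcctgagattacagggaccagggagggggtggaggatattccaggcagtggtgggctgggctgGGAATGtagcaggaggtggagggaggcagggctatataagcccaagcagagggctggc
Actc1 (chr2:114052888-114053075, - strand): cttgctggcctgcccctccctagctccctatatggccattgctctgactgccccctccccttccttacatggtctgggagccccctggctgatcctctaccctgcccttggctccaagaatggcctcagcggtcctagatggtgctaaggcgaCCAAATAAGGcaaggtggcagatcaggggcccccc
Myl3 (chr9:110763478-110763645, + strand): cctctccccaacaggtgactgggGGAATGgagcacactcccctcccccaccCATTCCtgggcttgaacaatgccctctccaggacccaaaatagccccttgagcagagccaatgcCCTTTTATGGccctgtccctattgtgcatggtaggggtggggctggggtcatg

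CATTCC was found at position -27 of the Tnnt2 window, in the Tnnc1 window and at 2 places in the Myl3 window, and it occurs in 14.7% of the 32851 RefSeq promoters of 300 bases. A CArG box, the site of serum response factor, begins at position -47 of Actc1 and at position -85 of Myl3, counted from the start site, and such a box occurs in 1.63% of all promoters. AGATAA occurs in 11.2% of them. Among the members not shown, Tpm1 held CATTCC at position -56 and Myl2 held AGATAA at position -211, although the RefSeq starts of Myl2 lie at least 7762 bases from any GENCODE start. None of the members' windows matched the MEF2 site, found in 3.19% of all promoters, and the windows of Tnni3, Tnni1 and Tnnt1 held none of these motifs. A match describes letters only, and no match says nothing of a factor.

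The 7 members of the adult ventricle were among the 27 highest genes of every library, whereas the 2 slow skeletal genes were low. The mean over the 8 libraries was 11498 ± 3234 FPKM for Myl2, 8720 ± 2680 for Actc1, 5506 ± 1233 for Tnni3, 5323 ± 937 for Tnnt2, 5283 ± 1340 for Myl3, 4217 ± 774 for Tpm1 and 2471 ± 535 for Tnnc1 (SD, n = 8). It was 14.2 ± 1.17 FPKM for Tnnt1 and 0.640 ± 0.781 FPKM for Tnni1 (SD, n = 8). Within libraries, Myl2 exceeded Actc1 in 6 of 8, Tnni3 exceeded Tnnt2 in 3 of 8 and Tnnt2 exceeded Myl3 in 4 of 8, so these neighbours had no fixed order. Actc1 exceeded Tnni3, Myl3 exceeded Tpm1 and Tpm1 exceeded Tnnc1 in 8 of 8 libraries. Together the 9 genes took 1.82% of all fragments in WT-TAC1 and 3.26 to 4.22% in the other 7 libraries.

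**Figure D2:**
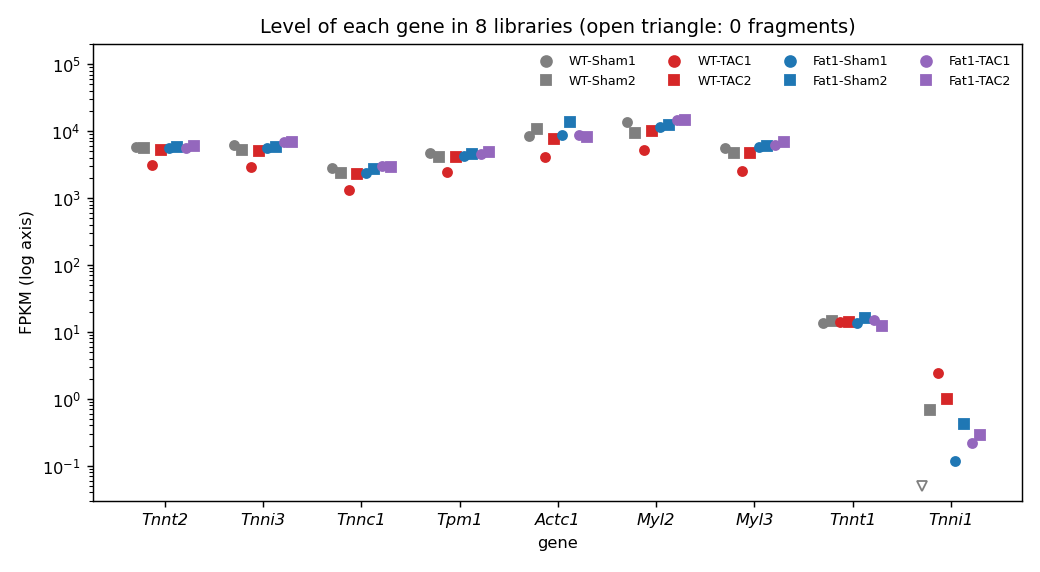
FPKM on a log axis for the 9 genes in each of the 8 libraries, coloured by group, with circles for replicate 1 and squares for replicate 2. The 7 ventricular members sit between 1334 and 14851 FPKM with WT-TAC1 lowest for each, Tnnt1 sits between 12.1 and 15.9 FPKM, and Tnni1 between 0 and 2.41 FPKM.

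No member was called changed in any comparison, by limma or by limma-voom on fragments recovered from the FPKM values. Tests were made with limma on log2(FPKM + 1) over 14442 genes, and a call required an adjusted p (Benjamini-Hochberg) below 0.1 together with a change beyond 1.5-fold. Of the members, 8 were tested, and Tnni1 was not, because it reached 1 FPKM in WT-TAC1 alone. Within the wild type, WT-TAC against WT-Sham called 0 of 8 members, with 0 at an unadjusted p under 0.05, against 0.935% of all genes called and 27.5% at that unadjusted p. All 8 members were lower in WT-TAC, with a median log2 fold change of -0.55, while the median of all genes was 0.39. In the transgenic mice, Fat1-TAC against Fat1-Sham called 0 of 8 members with 0 at an unadjusted p under 0.05 (all genes 0.00692% and 2.58%), and the median log2 fold change was 0.11. That fit took the spread from all groups, WT-TAC included. From the compared groups alone, limma gave an unadjusted p of 0.0253 for Tnni3 and 0.0334 for Myl2 (adjusted p 0.299 and 0.313). It gave 0.078, 0.156 and 0.288 for Tnnc1, Actc1 and Myl3, and called 0 members and 0 of all genes. Only members whose libraries did not overlap between these groups are given here, and the others are left out. The share of all genes at such an unadjusted p was not counted for this fit. After sham, Fat1-Sham against WT-Sham called 0 of 8 with 0 at an unadjusted p under 0.05 (all genes 0% and 1.25%), and the median was 0.03. After TAC, Fat1-TAC against WT-TAC called 0 of 8, but 4 members (Tnni3, Tnnc1, Myl2 and Myl3) had an unadjusted p under 0.05 (all genes 1.43% and 29.4%). There the median log2 fold change was 0.68, with 7 of 8 members higher, while the median of all genes was -0.40.

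Over both genotypes, TAC against sham called 0 of 8 members, with 0 at an unadjusted p under 0.05 (all genes 0% and 15.8%). Over both surgeries, Fat1 against WT called 0 of 8, with 1 member, Myl3, at an unadjusted p under 0.05 (all genes 0.0415% and 14.9%). The interaction of genotype and surgery, which tests whether the response to TAC differed between genotypes, called 0 of 8 with 0 at an unadjusted p under 0.05 (all genes 0.0692% and 7.26%). Every contrast except Fat1-TAC against Fat1-Sham and Fat1-Sham against WT-Sham had WT-TAC levels in its difference. The spread of each gene was estimated over all libraries, so the p-values of those exceptions depend on WT-TAC as well. The results of the contrasts are thus not independent of each other. In bulk tissue, fewer cells of a type and less RNA per cell cannot be told apart.

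The troponin complex was examined first. Tnnt2 (ENSMUSG00000026414), which anchors troponin to tropomyosin, was at 5873 and 5520 FPKM in WT-Sham, 3061 and 5268 in WT-TAC, 5578 and 5799 in Fat1-Sham, and 5587 and 5895 in Fat1-TAC. Tnni3 (ENSMUSG00000035458), the inhibitory subunit of the adult heart, was at 6166 and 5169 FPKM in WT-Sham, 2917 and 5066 in WT-TAC, 5503 and 5699 in Fat1-Sham, and 6756 and 6771 in Fat1-TAC. Tnnc1 (ENSMUSG00000091898), the calcium sensor, was at 2804 and 2325 FPKM in WT-Sham, 1334 and 2289 in WT-TAC, 2383 and 2720 in Fat1-Sham, and 2965 and 2950 in Fat1-TAC. For each of the 3 genes both WT-TAC libraries lay below both WT-Sham libraries, yet WT-TAC1 was far below and WT-TAC2 only just below. For Tnni3 and Tnnc1 both Fat1-TAC libraries also lay above both Fat1-Sham libraries, which did not hold for Tnnt2. On the log2(FPKM + 1) scale, Fat1-TAC exceeded WT-TAC by 0.81 ± 0.33 for Tnni3, by 0.76 ± 0.295 for Tnnc1 and by 0.52 ± 0.32 for Tnnt2 (SE), and the adjusted p was 0.167, 0.166 and 0.261 (limma, Benjamini-Hochberg). WT-TAC against WT-Sham gave -0.55 ± 0.33 for Tnni3, -0.55 ± 0.295 for Tnnc1 and -0.50 ± 0.32 for Tnnt2, with adjusted p of 0.256, 0.228 and 0.282 in the same limma fit.

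Among the 3 troponin genes, Tnni3 and Tnnc1 kept the closest proportion, which varied by 1.1-fold over all libraries. Tnnt2 varied by 1.29-fold against Tnni3 and by 1.26-fold against Tnnc1, more than against Tpm1 (1.12-fold). Tnni3 was 2.09 to 2.31 times Tnnc1 in FPKM over the other 7 libraries and 2.19 times in WT-TAC1. Tnnt2 was 0.827 to 1.07 times Tnni3 over the other 7 and 1.05 times in WT-TAC1. These proportions do not depend on how a library was scaled.

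Tropomyosin and actin form the backbone of the filament. Tpm1 (ENSMUSG00000032366) was at 4763 and 4103 FPKM in WT-Sham, 2453 and 4076 in WT-TAC, 4261 and 4597 in Fat1-Sham, and 4585 and 4903 in Fat1-TAC. Actc1 (ENSMUSG00000068614) was at 8322 and 10647 FPKM in WT-Sham, 4032 and 7594 in WT-TAC, 8831 and 13503 in Fat1-Sham, and 8611 and 8221 in Fat1-TAC. WT-TAC1 was again lowest, and Actc1 was the only member for which both Fat1-TAC libraries lay below both Fat1-Sham libraries. On the log2(FPKM + 1) scale, WT-TAC against WT-Sham was -0.48 ± 0.30 for Tpm1 and -0.77 ± 0.41 for Actc1 (SE), with adjusted p of 0.279 and 0.226 (limma, Benjamini-Hochberg). Fat1-TAC against Fat1-Sham was 0.10 ± 0.30 for Tpm1 and -0.38 ± 0.41 for Actc1, with an adjusted p of 1 for both in the limma fit. Fat1-TAC against WT-TAC was 0.58 ± 0.30 for Tpm1 and 0.60 ± 0.41 for Actc1, with adjusted p of 0.205 and 0.299 in that fit.

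Among the members, the ventricular light chains had the largest values for Fat1-TAC against WT-TAC, and neither passed the test. Myl2 (ENSMUSG00000013936), the regulatory light chain, was at 13735 and 9328 FPKM in WT-Sham, 5244 and 10107 in WT-TAC, 11573 and 12430 in Fat1-Sham, and 14851 and 14714 in Fat1-TAC. Myl3 (ENSMUSG00000059741), the essential light chain, was at 5512 and 4656 FPKM in WT-Sham, 2507 and 4677 in WT-TAC, 5873 and 6079 in Fat1-Sham, and 6158 and 6803 in Fat1-TAC. For both genes the ranges of WT-TAC and WT-Sham overlapped, since WT-TAC2 exceeded WT-Sham2. Both Fat1-TAC libraries lay above both libraries of each other group, and Myl3 was the only member for which both Fat1-Sham libraries lay above both WT-Sham libraries. On the log2(FPKM + 1) scale, Fat1-TAC exceeded WT-TAC by 1.02 ± 0.42 for Myl2 (unadjusted p = 0.0441, adjusted p = 0.167) and by 0.92 ± 0.34 for Myl3 (unadjusted p = 0.0314, adjusted p = 0.164), from limma with SE. The 95% intervals were 0.04 to 2.01 for Myl2 and 0.11 to 1.73 for Myl3. Over both surgeries, Fat1 exceeded WT by 0.58 ± 0.24 for Myl3 (limma, unadjusted p = 0.0484, adjusted p = 0.334).

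**Figure D3:**
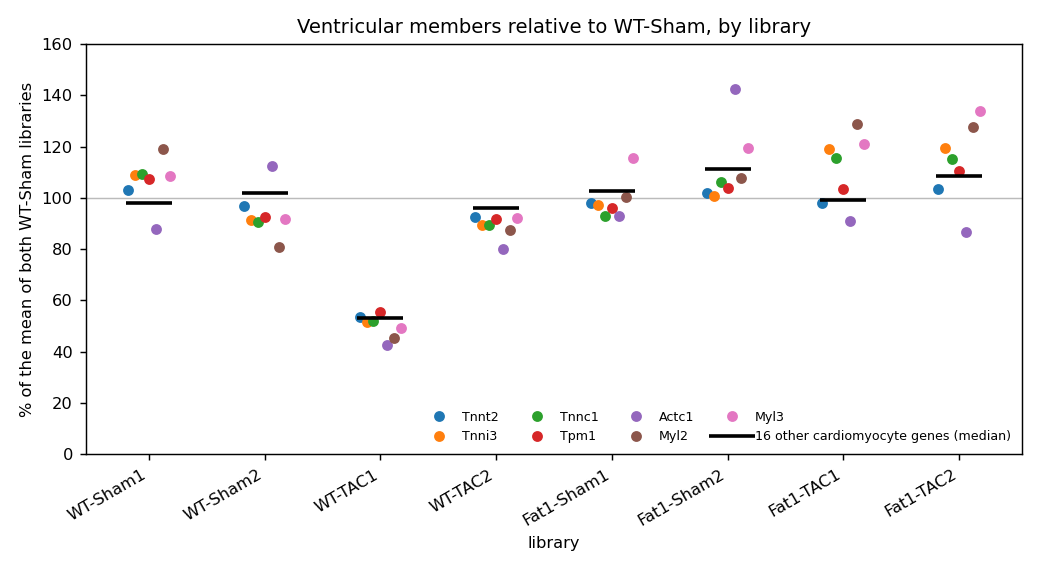
Level of the 7 ventricular members in each library as a percentage of the mean of both WT-Sham libraries, with a black bar for the median of 16 other cardiomyocyte genes on the same scale. In WT-TAC1 all 7 points lie near the lowered bar, in WT-TAC2 they lie closer to the WT-Sham level, and in Fat1-TAC the points of Tnni3, Tnnc1, Myl2 and Myl3 lie above the bar while Actc1 lies below it.

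Counts of libraries that did not overlap set the members beside all genes. Both WT-TAC libraries lay below both WT-Sham libraries for 5 of 8 members (Tnnt2, Tnni3, Tnnc1, Tpm1 and Actc1), as for 7.09% of all genes tested. Both Fat1-TAC libraries lay above both WT-TAC libraries for 7 of 8, as for 9.33% of all genes. Both Fat1-TAC libraries lay above both Fat1-Sham libraries for 4 of 8 (Tnni3, Tnnc1, Myl2 and Myl3) and below them for 1 of 8 (Actc1), as for 26.8% and 21.5% of all genes. Both Fat1-Sham libraries lay above both WT-Sham libraries for 1 of 8 (Myl3), as for 15.5% of all genes.

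WT-TAC1 decided the size of the differences that involve WT-TAC. Its levels were 51.9 to 60.2% of those in WT-TAC2 for the 7 ventricular members. Without WT-TAC1 the median log2 fold change of the members was -0.14 for WT-TAC against WT-Sham and 0.29 for Fat1-TAC against WT-TAC, with 0 called. Without WT-TAC2, which leaves WT-TAC1 alone, the medians of the members were -0.94 for WT-TAC against WT-Sham and 1.11 for Fat1-TAC against WT-TAC. The medians of all genes were then 0.52 and -0.56.

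The other cardiomyocyte genes were lower in WT-TAC1 as well. With each library scaled to the 16 reference genes, the median log2 fold change of the members was -0.07 for WT-TAC against WT-Sham and 0.15 for Fat1-TAC against WT-TAC, and 0 members were called in either. This scaling moved the median of all genes from 0.39 to 0.81 in the first comparison and from -0.40 to -0.88 in the second. Under this scaling Fat1-TAC exceeded WT-TAC by 0.49 for Myl2, 0.39 for Myl3, 0.28 for Tnni3 and 0.23 for Tnnc1 (limma adjusted p 0.155, 0.155, 0.155 and 0.187), by 0.07 for Actc1 and 0.05 for Tpm1, and Tnnt2 turned to -0.02. Relative to the reference genes and to its own mean, Myl2 stood at 1.2 and 0.788 in WT-Sham, 0.844 and 0.901 in WT-TAC, 0.969 and 0.959 in Fat1-Sham, and 1.28 and 1.17 in Fat1-TAC, and Tnnt2 at 1.04 and 0.987 in WT-TAC and at 1.02 and 0.983 in Fat1-TAC. The Fat1-TAC libraries thus lay above the WT-TAC libraries for Myl2 and overlapped with them for Tnnt2, while the WT-Sham libraries alone spanned most of the range of Myl2.

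**Figure D4:**
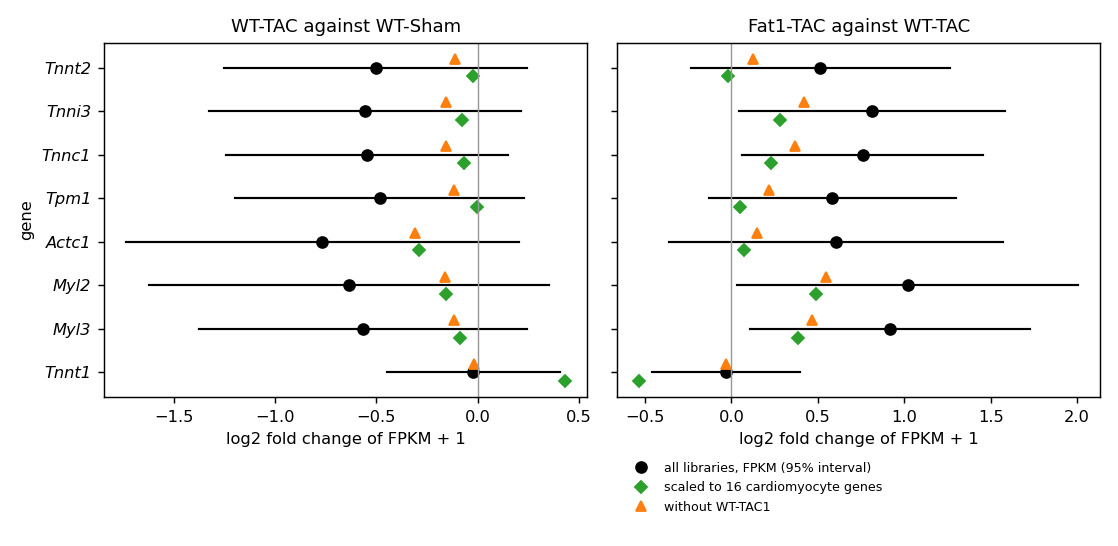
Log2 fold changes of FPKM + 1 for the 8 tested members in the 2 comparisons that involve WT-TAC, with 95% intervals from limma as black lines, the values scaled to 16 cardiomyocyte genes as green diamonds and the values without WT-TAC1 as orange triangles. The black points of the 7 ventricular members lie between -0.77 and -0.48 on the left and between 0.52 and 1.02 on the right, and the other 2 markers lie closer to 0 for each of them.

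Proportions among the 7 ventricular members also differed between libraries. Of the 21 pairwise ratios of FPKM, 11 lay outside the range of the other 7 libraries in WT-TAC1, 7 in each Fat1-TAC library, 6 in WT-Sham2, 5 in Fat1-Sham2, 4 in Fat1-Sham1, 2 in WT-Sham1 and 0 in WT-TAC2. In WT-TAC1, Tpm1 was 0.978 times Myl3, against 0.721 to 0.881 times in the other 7, and 0.468 times Myl2, against 0.309 to 0.440 times. The ratios that varied most over the 8 libraries involved Actc1, by 2.04-fold for Actc1 to Myl2, and the ratio of Tnni3 to Tnnc1 varied least, by 1.10-fold.

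Profiles over the 8 libraries were alike for most of the ventricular members, as described by Pearson's r of log2(FPKM + 1). It was 0.99 between Tnni3 and Tnnc1, 0.99 between Tnni3 and Myl2 and 0.69 between Actc1 and Myl2. Without WT-TAC1, over 7 libraries, it was 0.96, 0.96 and -0.19 for the same pairs. The points share their library, its depth and its content of other tissues, and the likeness of Actc1 to Myl2 was seen only with WT-TAC1 included.

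The slow skeletal troponins did not share the low level of the cardiac forms in WT-TAC1. Tnnt1 (ENSMUSG00000064179) was at 13.6 and 14.7 FPKM in WT-Sham, 13.9 and 13.9 in WT-TAC, 13.8 and 15.9 in Fat1-Sham, and 15.3 and 12.1 in Fat1-TAC. It rested on 136 to 221 fragments per library, and its level in WT-TAC1 was 98.1% of the mean of the other 7, where the ventricular members stood at 42.3 to 54.9%. The limma log2 fold changes of Tnnt1 were -0.02 ± 0.18 for WT-TAC against WT-Sham and -0.03 ± 0.18 for Fat1-TAC against WT-TAC (SE, adjusted p 0.939 and 0.903, Benjamini-Hochberg), with 95% intervals of -0.45 to 0.41 and -0.46 to 0.40. Scaled to the reference genes, these values were 0.43 and -0.53 (limma adjusted p 0.332 and 0.242).

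Tnni1 (ENSMUSG00000026418), the form of the fetal heart, was near the limit of detection. It was at 0 and 0.684 FPKM in WT-Sham, 2.41 and 0.982 in WT-TAC, 0.117 and 0.424 in Fat1-Sham, and 0.222 and 0.286 in Fat1-TAC. These values rest on 0, 14, 46, 17, 2, 8, 4 and 5 fragments in the same order. Both WT-TAC libraries were above the other 6. Among all genes tested, of which Tnni1 was not one, both WT-TAC libraries lay above both WT-Sham libraries for 52.5%, and both Fat1-TAC libraries lay below both WT-TAC libraries for 57.1%. In WT-Sham1, where it was at 0, 3 fragments would have given 0.220 FPKM, which is the level up to which it could have gone undetected. The exact 95% Poisson interval was 1.76 to 3.21 FPKM in WT-TAC1, 0.572 to 1.57 in WT-TAC2 and 0.374 to 1.15 in WT-Sham2, so the last 2 overlap, and these intervals cover counting error only. WT-TAC1 was also the library with the highest fast skeletal muscle markers, and the part of other muscle in its Tnni1 was not tested.

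Ratios between related genes were compared within libraries, where the scaling of a library cancels. Each was tested by an exact two-sided permutation test of 4 libraries against 4, whose smallest possible p is 0.0286, with adjustment over 8 tests. A single ratio could not go below an adjusted p of 0.229 in this design, so no single ratio could pass and the adjusted values say nothing of stability. Tnni3 exceeded Tnni1 by 1212-fold in WT-TAC1, 5160-fold in WT-TAC2 and 7552-fold in WT-Sham2, and by 13429-fold to 30420-fold in the 3 libraries Fat1-Sham2, Fat1-TAC1 and Fat1-TAC2. In WT-Sham1, where Tnni1 had 0 fragments, the excess over the level of 3 fragments was at least 28065-fold. In Fat1-Sham1, where Tnni1 had 2 fragments, the excess was 47165-fold, with an exact 95% counting interval of 13056-fold to 389453-fold. For the log2 ratios, Tnni1 was set to 3 fragments in both of these libraries. The mean log2 ratio of Tnni1 to Tnni3 was -14.52 ± 0.57 in Fat1 and -12.56 ± 1.865 in WT (SD, n = 4 each), lower in Fat1 by -1.96 (exact permutation p = 0.0857, adjusted p = 0.343). Between TAC and sham it differed by 1.08 (exact permutation p = 0.429, adjusted p = 0.771). Without WT-TAC1 these differences were -1.19 and 0.16, and with 1 FPKM added to both genes they were -0.95 and 0.64.

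The troponin T and light chain ratios were steadier. Tnnt1 was 0.452% of the sum of Tnnt1 and Tnnt2 in WT-TAC1 and 0.205 to 0.274% in the other 7 libraries. The log2 ratio of Tnnt1 to Tnnt2 differed by 0.17 between TAC and sham and by -0.24 between Fat1 and WT (exact permutation p = 0.714 and 0.457, adjusted p = 0.771 for both), and without WT-TAC1 the first was -0.05. The FPKM of Myl2 was 1.97 to 2.49 times that of Myl3 in all 8 libraries. The log2 ratio of Myl3 to Myl2 differed by -0.06 between TAC and sham and by 0.03 between Fat1 and WT (exact permutation p = 0.514 and 0.743, adjusted p = 0.771 for both).

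The ratio of cardiac to skeletal alpha-actin had the smallest p of the 8 ratio tests. Acta1, the skeletal form that the stressed heart is known to express, was at 183 and 326 FPKM in WT-Sham, 138 and 185 in WT-TAC, 109 and 276 in Fat1-Sham, and 421 and 262 in Fat1-TAC. Actc1 exceeded Acta1 by 45.5-fold and 32.7-fold in WT-Sham, 29.3-fold and 41.0-fold in WT-TAC, 81.0-fold and 49.0-fold in Fat1-Sham, and 20.4-fold and 31.4-fold in Fat1-TAC. The ranges of WT-Sham and WT-TAC overlapped, and those of Fat1-Sham and Fat1-TAC did not. The mean log2 ratio was 4.89 ± 0.41 after TAC and 5.62 ± 0.54 after sham (SD, n = 4 each), a difference of -0.74 (exact permutation p = 0.0571, adjusted p = 0.343). Between Fat1 and WT it differed by 0.13 (exact permutation p = 0.771, adjusted p = 0.771).

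**Figure D5:**
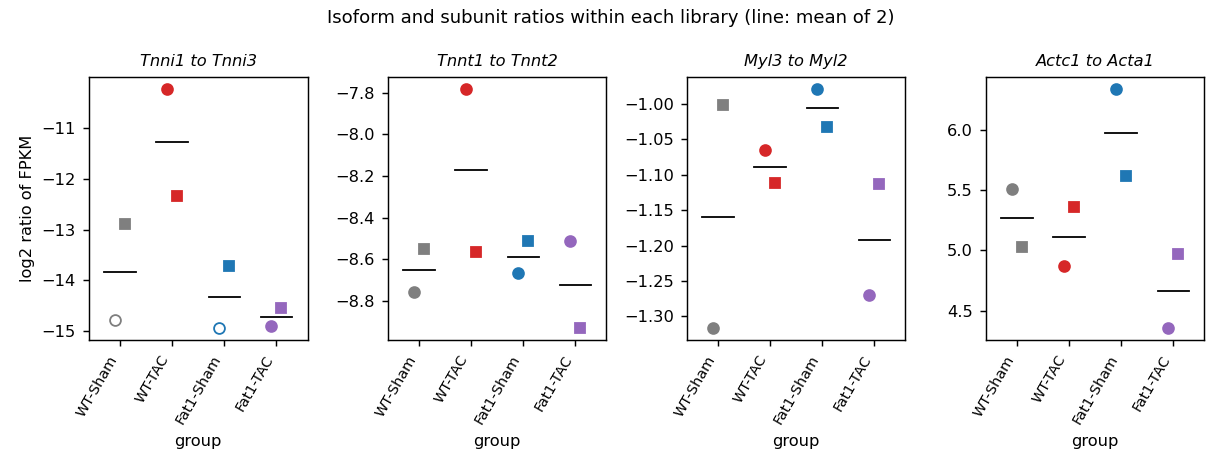
Log2 ratio of FPKM within each library for 4 pairs of genes, with circles for replicate 1, squares for replicate 2, open circles where Tnni1 was set to 3 fragments and a line at the mean of the 2 libraries of a group. The Actc1 to Acta1 ratio is lowest in Fat1-TAC and highest in Fat1-Sham, and WT-TAC1 stands highest in the panels of Tnni1 to Tnni3 and of Tnnt1 to Tnnt2.

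The atrial counterparts of the light chains are themselves part of the atrial marker list. The other 4 atrial markers, which leave out Myl7 and Myl4, summed to 267 to 785 FPKM in both WT-Sham libraries, both WT-TAC libraries and Fat1-Sham1, and to 10.9 to 18.5 FPKM in the remaining 3. Myl7 made up 3.22 and 17.3% of the sum of Myl7 and Myl2 in WT-Sham, 16.5 and 9.79% in WT-TAC, 4.95 and 0.0773% in Fat1-Sham, and 0.123 and 0.0863% in Fat1-TAC. Myl4 made up 5.73 and 20.4% of the sum of Myl4 and Myl3 in WT-Sham, 25 and 15.3% in WT-TAC, 6.08 and 0.0980% in Fat1-Sham, and 0.274 and 0.151% in Fat1-TAC. The libraries with little atrial RNA were thus Fat1-Sham2 and both Fat1-TAC libraries, so the atrial share and the Fat1-TAC group cannot be told apart in comparisons of Fat1-TAC with WT-TAC. Actc1 is expressed in atria as well as ventricles, whereas Myl2, within the heart, marks the ventricles.

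The other isoforms of the same families had medians of the opposite sign to those of the members. Of 20 such genes, 19 were found and tested, and limma called 0 of them for WT-TAC against WT-Sham and 0 for Fat1-TAC against WT-TAC. At an unadjusted p under 0.05, 7 were higher and 0 lower in the first comparison, and 1 was higher and 14 lower in the second. Of all genes, 27.5% and 29.4% had such a p in either direction. Their median log2 fold change was 0.75 and -1.42 in these comparisons, against -0.55 and 0.68 for the members and 0.39 and -0.40 for all genes. Those with the smallest p in WT-TAC against WT-Sham were Actg1, the cytoplasmic gamma-actin (1.04, adjusted p 0.171), Tnnt3, fast skeletal troponin T (3.46, adjusted p 0.172), and Myl6, the light chain of smooth and non-muscle myosin (0.76, adjusted p 0.175), all from limma. In Fat1-TAC against WT-TAC they were Tnnt3 (-3.39, adjusted p 0.138), Actg1 (-1, adjusted p 0.142) and Actg2, the enteric smooth muscle actin (-2.55, adjusted p 0.146). Tnnt3 was at 48.4 and 4.73 FPKM in the WT-TAC libraries, and at 0.398 to 0.715 FPKM in the other 6 libraries.

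Accessory genes of the thin filament had medians of the same sign as the members. All 8 accessory genes were tested, and limma called 0 in either comparison with WT-TAC. An unadjusted p under 0.05 was found for 0 genes in the first and 2 in the second (27.5% and 29.4% of all genes). Their median log2 fold change was -0.40 for WT-TAC against WT-Sham and 0.37 for Fat1-TAC against WT-TAC. The smallest p in the first comparison belonged to Cap2, Fhod3 and Lmod3 (-0.46, -0.54 and -0.45, adjusted p 0.189, 0.197 and 0.234), and in the second to Lmod3, Lmod2 and Nrap (0.71, 0.53 and 0.54, adjusted p 0.163, 0.165 and 0.215), from limma. Leiomodins such as Lmod2 and Lmod3 nucleate and lengthen actin filaments, and Fhod3 is a formin that builds them. The 16 cardiomyocyte reference genes, which share Nebl with this list and Mybpc3 and Myom1 with the thick filament list, had medians of -0.41 and 0.53, also with 0 called. Of these genes, 0 and 3 had an unadjusted p under 0.05, beside the same shares of all genes.

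The thick filament genes and the kinases and phosphatase subunits that act on Myl2 were mixed. Of these 12 genes, limma called 0 in either comparison. An unadjusted p under 0.05 was found for 2 genes in the first and 3 in the second (27.5% and 29.4% of all genes). Ppp1r12a, the targeting subunit of myosin phosphatase that is broadly expressed, had the smallest p in both (0.84, adjusted p 0.175, and -0.90, adjusted p 0.138, limma). Myh7, the slow myosin heavy chain of the fetal ventricle, was at 28.9 and 47.3 FPKM in WT-Sham, 50.7 and 89.0 in WT-TAC, 31.1 and 30.5 in Fat1-Sham, and 76.0 and 120 in Fat1-TAC. For Myh7 both TAC libraries lay above both sham libraries in each genotype, as for 52.5% of all genes in WT and 26.8% in Fat1, and the log2 fold change in WT was 0.85 (limma adjusted p 0.181). Mylk3, the cardiac kinase of Myl2, came next among the smallest p in that contrast (-0.49, limma adjusted p 0.200). Mybphl, an atrial gene, and Myh7b followed Ppp1r12a in Fat1-TAC against WT-TAC (-5.20 and 0.81, limma adjusted p 0.143 and 0.166).

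The genes whose profile over the 8 libraries was most like the mean of the 7 ventricular members were Apobec2, Ckm and Pln, each with a Pearson r of 0.99 among 9450 genes with a mean of 5 FPKM or more. Pln is also one of the 16 reference genes. Ckm encodes muscle creatine kinase and Pln phospholamban, the inhibitor of the calcium pump. Of the genes searched, 487 had an r above the looser limit of 0.9, and likeness without WT-TAC1 was not tested. For Tnni1 the most alike were Cdipt, Trmt1l and Tgfbrap1 (r of 0.99, 0.99 and 0.98), with 1551 genes above 0.9, and for Tnnt1 they were Gclm, Tmem218 and Mrpl37 (r of 0.89, 0.84 and 0.83), with 0 genes above 0.9.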

How the data were processed

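Total RNA from the hearts of 8 mice was sequenced, 2 samples in each of 4 groups taken from the labels, and p-values measure the spread between these samples. The table that the authors deposited gives 25929 genes as FPKM, with a column for each library. Per the labels, the submitters' processing notes name HISAT2 and the builds mm10 and GRCm38, and the counting program and versions are not given in the sources used here. In the table, 77 genes had no symbol and 4 blank lines were removed. Whole fragments were recovered for 25928 genes (tolerance 0.002 fragments), as FPKM values of a gene are multiples of what 1 fragment is worth. They were used for depth, floors and 1 alternative test.

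On the log2(FPKM + 1) scale, the 14442 genes that reached 1 FPKM in 2 or more of the libraries entered the fit. The tool limma 3.58.1 (R 4.3.3; lmFit and eBayes with a trend, 4 group means, no covariate) was used, after being tested on simulated data. Calls required a Benjamini-Hochberg adjusted p under 0.1 and over 1.5-fold. A pseudocount understates changes of low genes. Ratios were compared by exact permutation (Python 3.11.15). Positions were read from GENCODE M21 and promoters from RefSeq GRCm38.p6. The members, the gene lists and the tests were chosen with earlier results of these data known. Named genes were all members, the 3 list genes with the smallest p in each of 2 comparisons and the 3 most alike genes per profile. The levels of Tnnt3, Myh7, Acta1 and marker genes shown beyond that were chosen after their values were seen.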

Additional observations from a re-analysis of the deposited data

Results flagged for a closer look

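Tnni3 and Tnnc1 were flagged because their libraries moved in opposite directions in the 2 genotypes. For both genes, each WT-TAC library lay below each WT-Sham library and each Fat1-TAC library lay above each Fat1-Sham library, as held separately for 7.09% and 26.8% of all genes. The interaction of genotype and surgery was 0.83 ± 0.46 for Tnni3 and 0.76 ± 0.42 for Tnnc1 on the log2(FPKM + 1) scale (SE, limma), and neither passed, with an adjusted p of 0.495 for both. Without WT-TAC1 the difference between WT-TAC and WT-Sham was -0.16 for each gene instead of -0.55. The difference between Fat1-TAC and Fat1-Sham stayed at 0.27 for Tnni3 and 0.22 for Tnnc1. The median interaction of the 8 tested members was then 0.22 instead of 0.63, which describes the set and not these 2 genes. With groups of 2 samples, no sample was tested for standing apart from its group.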

How the results depend on the processing

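With WT-TAC1 as the only WT-TAC library (without WT-TAC replicate 2), limma called 7 members in WT-TAC against WT-Sham, 7 in Fat1-TAC against WT-TAC, 7 for the interaction, 1 (Actc1) for TAC against sham over both genotypes and 4 for Fat1 against WT over both surgeries. The lone library was assumed to vary like the other groups, so the spread within WT-TAC did not enter these counts. Under this setting far more of all genes were called too, in each of these comparisons. The counts of members are therefore not read as changes of the members in particular. Leaving out each library in turn, the numbers of members called thus ranged from 0 to 7, 0 to 7, 0 to 7, 0 to 1 and 0 to 4, and the other 125 of 130 counts of members did not move. For WT-TAC against WT-Sham, quantile normalization turned the log2 fold change to 0.023 for Tnnt2, 0.047 for Tpm1, 0.010 for Myl2 and 0.012 for Myl3, and Tnnt1 was 0.432 scaled to cardiomyocyte genes and ranged from -0.076 to 0.034 with each library left out. For Fat1-TAC against WT-TAC, Tnnt2 was -0.085 under quantile normalization and -0.017 scaled to cardiomyocyte genes, and Actc1 was 0.00 under quantile normalization. Tnnt1 was there 0.365 with median of ratios, 0.470 under quantile normalization, 0.141 without mitochondrially encoded genes, and it ranged from -0.190 to 0.127 with each library left out. The cause was not tested. Leaving out each library in turn, the log2 ratio of Myl3 to Myl2 for Fat1 against WT ranged from -0.039 to 0.083, of Tnnt1 to Tnnt2 for TAC against sham from -0.049 to 0.334, of Actc1 to Acta1 for Fat1 against WT from -0.212 to 0.450, and of Tnni1 to Tnni3 from 0.159 to 1.709 for TAC against sham and from -2.700 to -1.189 for Fat1 against WT.

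Replicate numbers did not pair the samples (correlations of deviations -0.135 to 0.024). With the replicate number as a block, 0 members were called in any comparison, and over all genes 52 were called in WT-TAC against WT-Sham instead of 135 and 52 in Fat1-TAC against WT-TAC instead of 206. The calls over all genes also depended on the other settings, and limma-voom on recovered fragments gave 6 higher and 0 lower in the first, and 2 higher and 90 lower in the second. Median of ratios set the median of all genes at 0.03 and -0.04 in these comparisons, and the medians of the members at -0.98 and 1.11, while quantile normalization set the medians of the members at -0.04 (4 of 8 higher) and 0.21. With 2 samples a group the precision is limited by the number of samples, and for Tnni1 by its 0 to 46 fragments.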
